A study of Mus musculus with 2 samples.

Results

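The Ly6 genes described here are Ly6a, Ly6c1, Ly6c2, Ly6d, Ly6e, Ly6g and Ly6i, 7 of the 27998 genes counted in single cells from whole mouse lung. They were taken by gene symbol, and each symbol matched 1 gene. The 2 libraries, labelled control and fibrosis, each came from the lung of 1 male C57Bl/6J mouse aged 3 months. Each mouse had received 100 µg of particles into the trachea 14 days earlier. The labels name titanium dioxide, a particle used as a control, and crocidolite asbestos, a fibre that scars the lung, for both samples without saying which mouse received which, so the libraries keep their labelled names. The lungs were digested and the cells captured in droplets with 3′ counting, which reads the end of each transcript and counts unique molecular identifiers (UMIs). The genes were chosen with levels of these same libraries known, so their levels are descriptions. Each group being a single mouse, the spread between animals is unknown, no test is given, and the 95% intervals cover counting error only.

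Ly6 proteins are small cysteine-rich surface proteins, most of them held in the outer membrane by a lipid (GPI) anchor, and several are the antigens by which mouse blood cells are sorted. Ly6a is Sca-1, a marker of blood stem cells that is also carried by endothelium and some stromal cells. The Ly6C antigen, by which classical monocytes are known, is encoded by Ly6c1 and Ly6c2, Ly6g marks neutrophils, and Ly6d marks cells committed to the B lineage. Ly6e is an interferon-inducible member with a wide expression.

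The genes form a cluster on chromosome 15 (mouse build GRCm38) that spans 397 kb. Ly6d (ENSMUSG00000034634) lies at 74762056 to 74763620 on the minus strand. It is followed by Ly6e (ENSMUSG00000022587) at 74955051 to 74959905 on the plus strand. Ly6i (ENSMUSG00000022586) at 74979534 to 74983430 and Ly6a (ENSMUSG00000075602) at 74994877 to 74998031 are on the minus strand. Ly6c1 (ENSMUSG00000079018) at 75044018 to 75048830 and Ly6c2 (ENSMUSG00000022584) at 75108158 to 75111970 are also on the minus strand, and Ly6g (ENSMUSG00000022582) at 75155240 to 75159126 is on the plus strand. All 7 are annotated as protein-coding.

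Sequence likeness bears on how far the counts of single copies can be trusted. The coding sequences of Ly6c1 and Ly6c2, both of 396 bases, differed at 9 positions (97.7% identity), while those of Ly6a and Ly6i, both of 405 bases, differed at 55 (86.4%). The first 150 coding bases of each, from the GENCODE M21 transcripts, are shown with the bases that differ within the couple in capitals.
Ly6c1: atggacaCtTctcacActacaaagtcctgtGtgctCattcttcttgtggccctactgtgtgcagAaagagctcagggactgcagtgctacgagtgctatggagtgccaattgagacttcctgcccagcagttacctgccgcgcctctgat
Ly6c2: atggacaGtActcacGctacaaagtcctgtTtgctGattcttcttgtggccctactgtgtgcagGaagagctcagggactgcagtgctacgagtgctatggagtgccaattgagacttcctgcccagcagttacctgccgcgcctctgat
Ly6a: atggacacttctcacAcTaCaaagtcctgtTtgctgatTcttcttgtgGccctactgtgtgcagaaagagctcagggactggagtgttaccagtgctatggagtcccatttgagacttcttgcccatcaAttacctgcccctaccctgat
Ly6i: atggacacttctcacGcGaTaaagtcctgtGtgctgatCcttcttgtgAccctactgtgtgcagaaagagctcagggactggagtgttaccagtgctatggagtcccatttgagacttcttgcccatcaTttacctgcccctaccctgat
These stretches differ at 6 positions between Ly6c1 and Ly6c2 and at 7 between Ly6a and Ly6i. In the last 300 transcript bases, where 3′ reads fall, Ly6c1 and Ly6c2 were 93.5% identical and Ly6a and Ly6i 82.4%. Of the 251 windows of 50 bases in that end, 75 (29.9%) of Ly6c1 also occurred in Ly6c2, so UMIs of these copies can be exchanged or lost, and no window of the other 5 members occurred in a transcript of another gene. Ly6d and Ly6e were the most distant, with coding identities to any member of 47.1% to 52.7%.

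The RefSeq promoter table used here (GRCm38.p6) held Ly6c1, Ly6c2 and Ly6g, neighbours that were highest in 3 different kinds of cell, and the 250 bases before the RefSeq start of each are shown to let these copies be compared. Capitals mark matches on either strand to TATAAA, the TATA box, and to GGAAGT, an ETS core. Ly6c1 stands at chr15:75048838-75049087 (minus strand), Ly6c2 at chr15:75111972-75112221 (minus strand) and Ly6g at chr15:75155011-75155260 (plus strand). The RefSeq start of Ly6g lies inside the gene as GENCODE places it, so the last bases of that window are within the GENCODE gene.
Ly6c1: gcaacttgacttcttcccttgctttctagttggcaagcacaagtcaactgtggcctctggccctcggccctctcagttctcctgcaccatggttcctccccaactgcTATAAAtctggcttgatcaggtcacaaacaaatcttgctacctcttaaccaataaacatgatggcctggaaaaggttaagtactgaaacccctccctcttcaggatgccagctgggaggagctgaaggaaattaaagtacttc
Ly6c2: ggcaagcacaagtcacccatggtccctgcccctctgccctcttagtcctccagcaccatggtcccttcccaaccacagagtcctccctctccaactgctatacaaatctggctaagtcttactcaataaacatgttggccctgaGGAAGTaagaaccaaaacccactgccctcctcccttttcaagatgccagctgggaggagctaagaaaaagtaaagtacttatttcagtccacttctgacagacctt
Ly6g: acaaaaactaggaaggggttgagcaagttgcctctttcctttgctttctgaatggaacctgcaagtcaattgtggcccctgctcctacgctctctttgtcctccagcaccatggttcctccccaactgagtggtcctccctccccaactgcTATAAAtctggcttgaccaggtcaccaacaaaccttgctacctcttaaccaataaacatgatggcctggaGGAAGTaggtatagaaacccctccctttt
Of the aligned bases, 75.9% were the same in Ly6c1 and Ly6c2, 83.5% in Ly6c1 and Ly6g and 78.0% in Ly6c2 and Ly6g. With gaps counted as differences the shares were 71.9%, 75.1% and 65.5%, so which copy is nearer to Ly6c2 depends on the measure. The TATA letters occurred once in Ly6c1 and once in Ly6g, and in 3504 of 27025 promoters of the same length. The ETS letters occurred once in Ly6c2 and once in Ly6g, and in 5401 of the 27025 promoters. TTCNNNGAA (the GAS element, in 7.18% of promoters) and the interferon-stimulated response element ISRE (in 3.04%) did not occur in these 3 windows. A match describes letters and is not evidence of binding.

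The libraries held 8280 and 7173 cells, with medians of 3783.5 and 4292 UMIs per cell, and shared 89 cell barcodes. Filters left 7510 cells of the control mouse and 6559 of the fibrosis mouse, and 86.5% and 80.3% of them passed a gate on marker genes that held no Ly6 gene. Classes are called "-like" because their names rest on transcripts. In each class checked that had its own marker list, its markers outnumbered those of any other class among its 10 leading genes. The gate picked cells for these markers, so this was partly set in advance and does not test the names. Levels are given as CPM, the UMIs of a gene scaled to a fixed total of UMIs of the class. Cells without a transcript of their own can carry UMIs from free RNA, so low levels are set beside classes of similar depth. A class entered the comparison with at least 50 cells in each library, which 13 classes had.

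**Figure D1:**
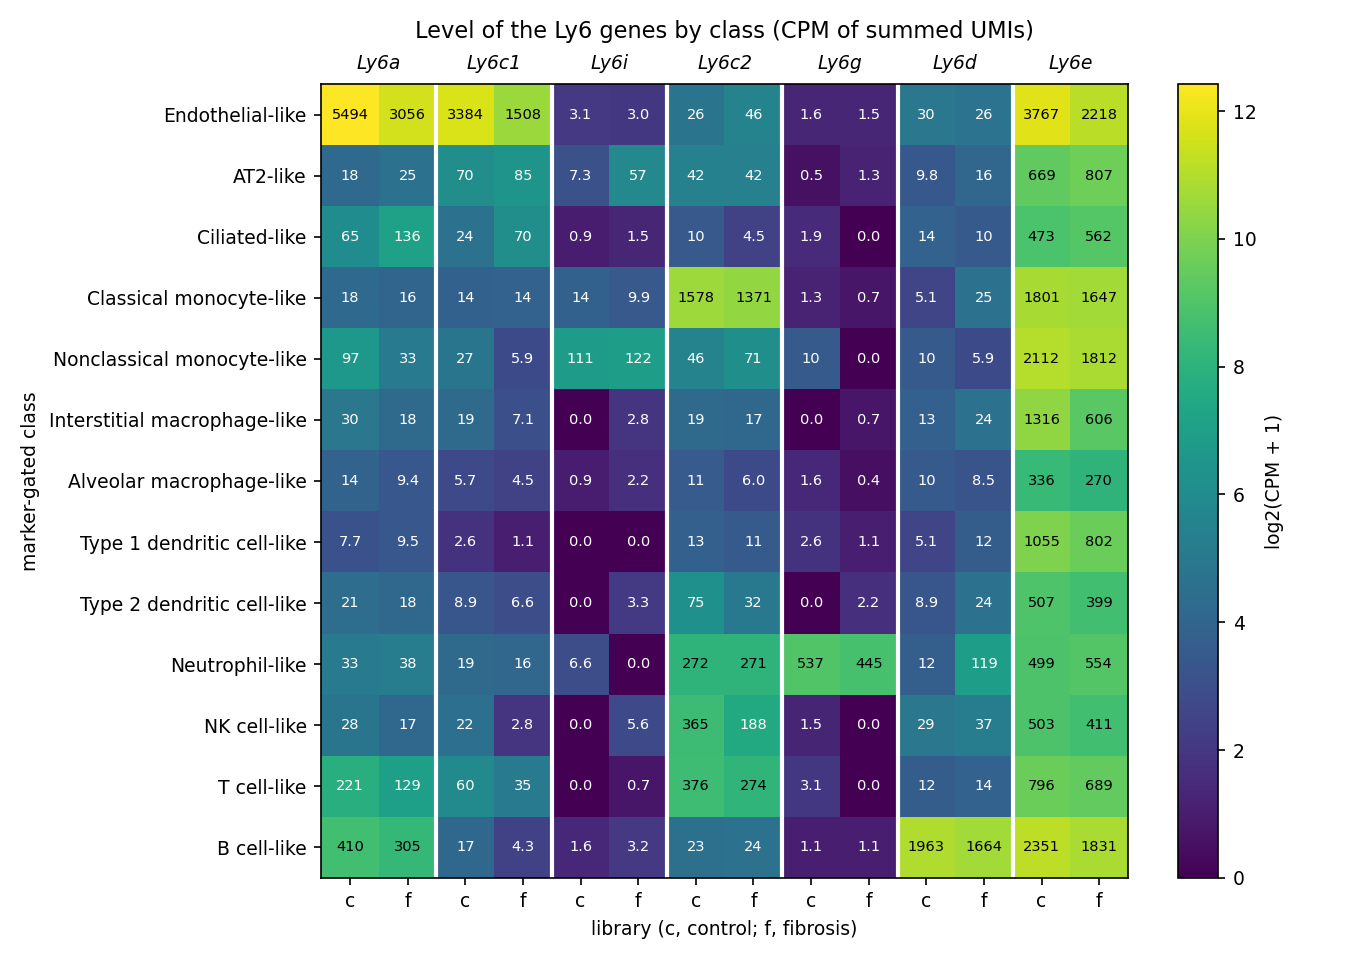
Level of the 7 Ly6 genes (columns, control beside fibrosis library) in the 13 classes with at least 50 cells in each library (rows), as CPM of summed UMIs, printed in each cell, with the colour on a log2(CPM + 1) scale. Ly6a and Ly6c1 were highest in endothelial-like cells, Ly6c2 in classical monocyte-like, Ly6g in neutrophil-like and Ly6d in B cell-like cells, while Ly6e reached at least 270 CPM in each class.

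Of the 91 combinations of a Ly6 gene and a class, 60 had at least 20 UMIs over both libraries. Of these, 6 were at least 2-fold higher in the fibrosis library (10.0%, against 5.09% over all genes and classes) and 6 were at least 2-fold lower (10.0%, against 3.16%). The median log2 ratio of the 60 was -0.22. The higher ones were Ly6i in AT2-like cells, Ly6a and Ly6c1 in ciliated-like cells, and Ly6d in classical monocyte-like, neutrophil-like and type 2 dendritic cell-like cells. The lower ones were Ly6c1 in endothelial-like, B cell-like and interstitial macrophage-like cells, Ly6e in interstitial macrophage-like cells, Ly6a in nonclassical monocyte-like cells and Ly6c2 in type 2 dendritic cell-like cells. These calls are sizes without a test. Ly6i in AT2-like cells and Ly6d in neutrophil-like cells were past 2-fold in each alternative of the whole class that was run, but 8 of the 9 fibrosis neutrophil-like cells with Ly6d carried a B cell marker, and without marker-bearing cells the direction changed (log2 -0.60, 11 and 1 UMIs). With each cell thinned to 1000 UMIs, none of the 6 lower combinations was past 2-fold.

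**Figure D2:**
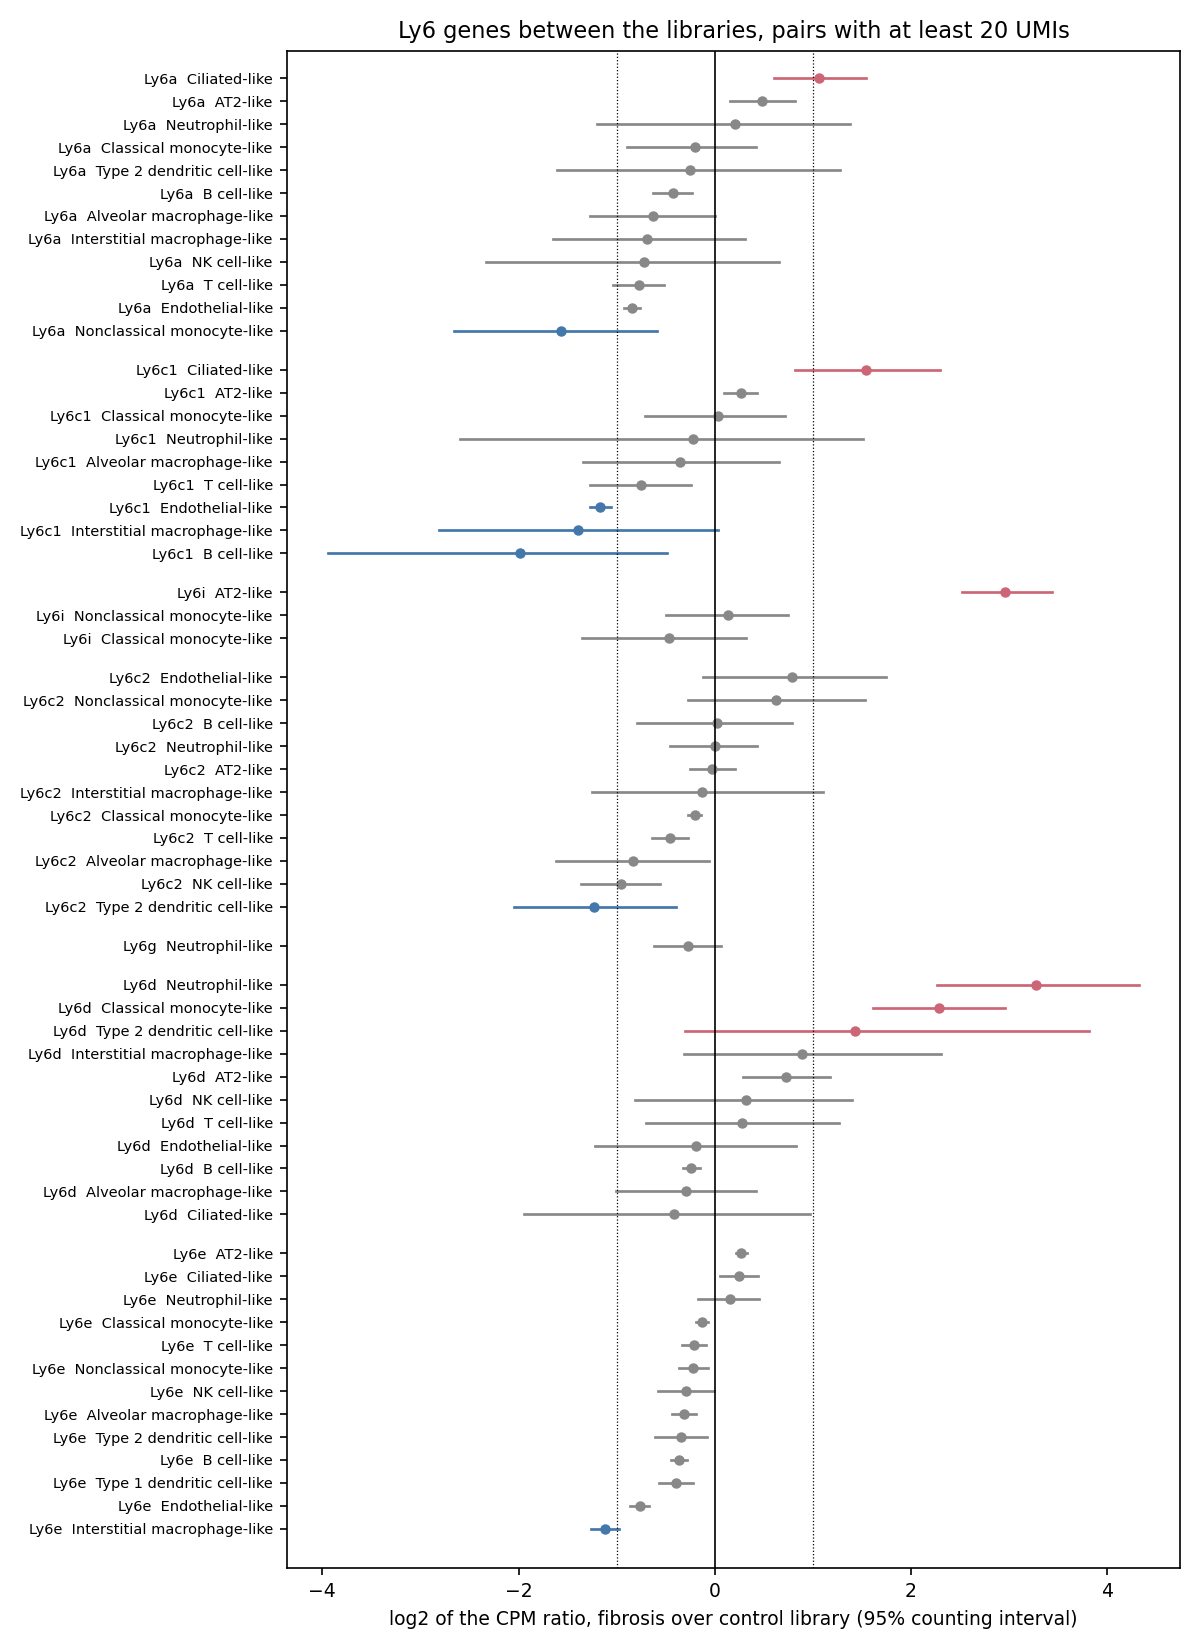
Log2 of the CPM ratio, fibrosis over control library, for the 60 gene and class combinations with at least 20 UMIs. Points are ratios and bars 95% counting intervals, dotted lines mark 2-fold, red points are at least 2-fold higher and blue points at least 2-fold lower. The Ly6i point of AT2-like cells (2.96) stands apart from the other Ly6i points, and the Ly6e points lie between -1.12 and 0.27.

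Ly6a, the Sca-1 gene, was highest in endothelial-like cells in both libraries. It stood at 5494 CPM (5314 to 5678) in 253 control cells and at 3056 CPM (2924 to 3193) in 172 fibrosis cells, and 98.8% and 98.3% of these cells had a UMI. That class made up 3.37% and 2.62% of kept cells and held 56.7% and 48.3% of all Ly6a UMIs. Fibroblast-like cells came next with 975 and 1092 CPM, from 41 and 49 cells, below the number set for a comparison. About as many of them had a Ly6a UMI in each library, 51.2% and 55.1%, and 1 fibrosis cell held 32.7% of the fibrosis UMIs. Among lymphoid cells Ly6a reached 410.5 and 305 CPM in B cell-like and 221 and 129 CPM in T cell-like cells, where the CD4 subset (56 and 63 cells) had 519 and 248 CPM. Plasmacytoid dendritic cell-like cells, type I interferon producers, had 706 and 384 CPM from 60 and 41 cells. In the macrophage-like classes the level was 29.8 CPM or less. Among endothelial-like, fibroblast-like, plasmacytoid and B cell-like cells the order was the same in both libraries, and the plasmacytoid and B cell intervals overlapped in the fibrosis library.

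Ly6c1 was, like Ly6a, highest in endothelial-like cells. It measured 3384 CPM (3244 to 3530) in control and 1508 CPM (1416 to 1605) in fibrosis endothelial-like cells, 2.24-fold lower (log2 -1.17, -1.28 to -1.06). The ratio was under 2-fold in 4 of 11 alternatives, with cells thinned to 1000 UMIs, classes taken from clusters, cells weighted equally or the shift of the other classes subtracted, and reached -0.76 at the smallest. The median count per cell was 7 UMIs against 4, and 92.9% and 87.8% of the cells had UMIs of both Ly6a and Ly6c1. In the same cells Ly6a differed by log2 -0.85 and Ly6e by -0.76. Of all genes tested in this class, 5.47% were at least 2-fold lower and 4.48% higher, and the median log2 ratio was -0.08. Endothelial-like cells are a mixture, and those with a UMI of Vwf, the von Willebrand factor of larger vessels, made up 25.7% of the control and 45.3% of the fibrosis cells. Such a share rises with the UMIs per cell and was not thinned, so it is no measure of larger vessels. Cells without a Vwf UMI can include ones read less deeply. The level of Vwf in the class was 1186 and 1472 CPM (log2 0.31). Ly6c1 stood at 4410 and 2545 CPM in cells without Vwf (log2 -0.79) and at 1447 and 841 CPM in cells with it (log2 -0.78). Within each subset the difference was therefore under 2-fold, and the ratio of the whole class was larger than either. Ly6a differed by log2 -0.66 without and -0.64 with Vwf. Of 10 genes that mark kinds of endothelium, 2 were at least 2-fold lower and none higher (median log2 0.07). These were Car4 (2023 to 729 CPM) and Ednrb (640.5 to 257 CPM), both known from a type of lung capillary cell.

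**Figure D3:**
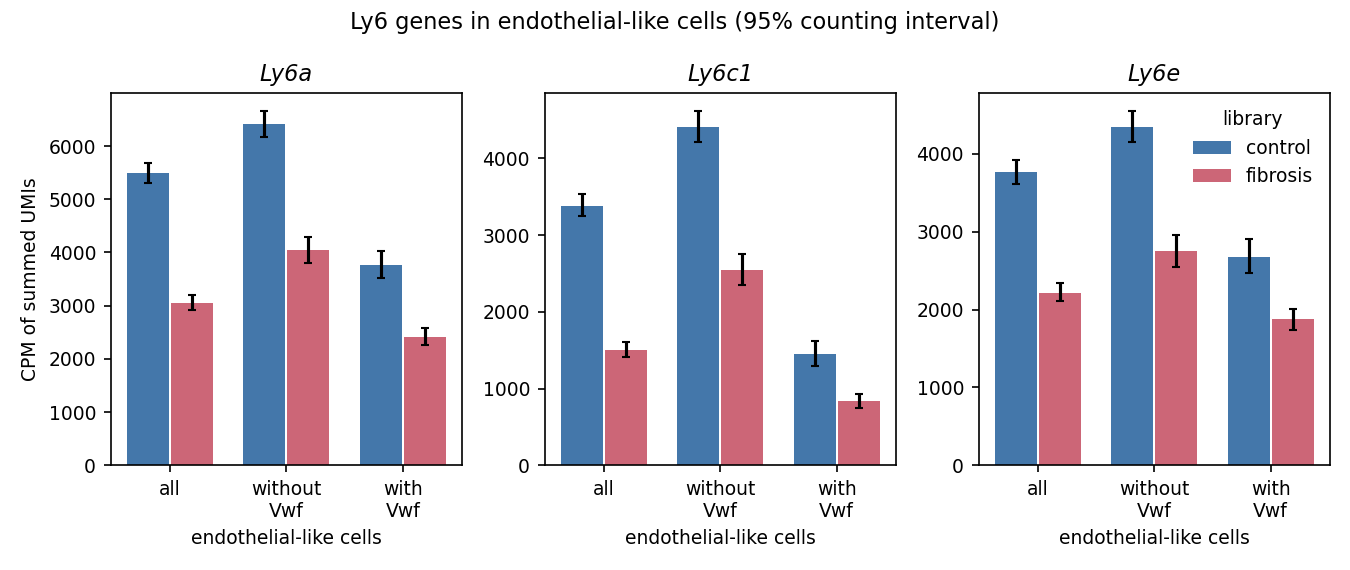
Ly6a, Ly6c1 and Ly6e in endothelial-like cells, all and split by a Vwf UMI, as CPM of summed UMIs (bars) with 95% counting intervals, control in blue and fibrosis in red. The fibrosis bar is lower than the control bar in each split, and for each gene cells with Vwf were lower than cells without it.

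Outside the endothelium Ly6c1 was found in several classes, among them AT2-like cells, the surfactant-making cells of the alveolus. It stood at 70.3 CPM (63.9 to 77.3) in 1005 control cells and 84.5 CPM (79.0 to 90.3) in 1700 fibrosis cells, and 30.0% and 32.3% of them had a UMI. Alveolar macrophage-like cells, with median depths of 4953.5 and 5320 UMIs against 5656 and 5496.5 in AT2-like cells, had 5.67 and 4.45 CPM. T cell-like cells had 59.7 CPM (48.4 to 72.8) in control, which overlapped the AT2 interval, and 35.5 CPM in fibrosis. The near copy Ly6c2 stood at 42.3 and 41.6 CPM in AT2-like cells (260 and 433 UMIs). An exchange of UMIs between the copies there was not tested. In the fibrosis library AT2-like cells held 37.0% of all Ly6c1 UMIs, close to the endothelial share of 41.6%. Fibroblast-like cells had 288 and 135 CPM. In ciliated-like cells Ly6c1 was at 24.1 and 70.1 CPM (26 and 47 UMIs) and Ly6a at 64.8 and 136 CPM (70 and 91 UMIs). Over all genes in that class, 6.24% were at least 2-fold higher and the median log2 ratio was 0.28. The 9 endothelial markers summed to 34.2 and 40.3 CPM there, Cdh5 and Tie1 were at 0 in control and Ramp2 and Tek in fibrosis, and in cells without any of them Ly6c1 was 3.34-fold and Ly6a 1.44-fold higher. The Ly6a ratio was under 2-fold in 4 of 10 alternatives, among them leaving out the cell with the most UMIs, and the Ly6c1 ratio in 1 of 10, at log2 0.71 with classes taken from clusters. The low Ly6c1 of B cell-like cells (17.0 and 4.31 CPM) rested on 32 and 4 UMIs, and that of interstitial macrophage-like cells (18.6 and 7.09 CPM) on 10 each. Endothelial markers were lower with them, from 224 to 166 CPM in the former and from 89.4 to 63.1 CPM in the latter, and their part was not tested. Over all genes 2.98% were at least 2-fold lower in B cell-like and 3.88% in interstitial macrophage-like cells. With Ly6c1 and Ly6c2 summed the B cell ratio was log2 -0.14, and the macrophage ratio was under 2-fold in 4 of 11 alternatives.

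Ly6c2, the near copy of Ly6c1, was highest in plasmacytoid dendritic cell-like and classical monocyte-like cells. In classical monocyte-like cells it stood at 1578 CPM (1551 to 1606) in 1530 control cells and 1371 CPM (1313 to 1432) in 344 fibrosis cells, and 1453 and 313 of them had a UMI. The median cell held 7 UMIs in control and 5 in fibrosis. Ly6c1 stood at 13.5 and 13.9 CPM in the same class. This class held 77.4% of all Ly6c2 UMIs in control, where it was 20.4% of kept cells, and 49.4% in fibrosis, where it was 5.24%. Plasmacytoid dendritic cell-like cells had 2097 CPM (1915 to 2293) and 1756 CPM (1540 to 1993). UMIs of both Ly6c1 and Ly6c2 were found in 3.95% and 4.65% of endothelial-like cells, against 93.7% and 89.0% with a UMI of Ly6c1.

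Across monocytes Ly6c2 was lower the more nonclassical markers a cell carried. Nonclassical monocytes patrol the vessel wall and are known for low Ly6C. In control cells Ly6c2 was 1722 CPM with 0 or 1 of the 8 markers, 1231 with 2 or 3, 612 with 4 or 5 and 312 with 6 or more. In fibrosis cells the levels were 1482, 1107, 197 and 110 CPM in the same order. These groups cut across the gates, and cells that passed both monocyte gates (572 and 337 CPM, 52 and 19 cells) are among them. In the gated nonclassical monocyte-like class Ly6c2 was 46.2 CPM (28.9 to 69.9) in control and 71.3 CPM (45.7 to 106) in fibrosis, from 22 and 24 UMIs, with overlapping intervals, so no difference between the libraries is read from the groups with 4 or more markers. Ly6i ran the other way, from 10.8 and 15.8 CPM to 76.2 and 103.5 CPM in control, and from 7.92 and 11.8 CPM to 123 and 89.7 CPM in fibrosis. Ly6a went from 15.4 to 57.7 CPM between the outer groups in control. In fibrosis it was 19.4, 5.9, 34.5 and 20.4 CPM over the groups, from 22, 2, 7 and 5 UMIs. These are too few to show a trend or the lack of one. Ly6e lay between 1570 and 2021 CPM in all 8 groups. The markers of the gate do not include a Ly6 gene, but the cells were gated on the same transcripts that order them here. Of 8 genes of the classical side, none passed 2-fold between the libraries in classical monocyte-like cells, and none of 9 genes of the nonclassical side did in nonclassical monocyte-like cells (medians of log2 -0.05 and 0.06). Over all genes 4.35% were higher and 3.6% lower in the former class, and 3.46% higher and 3.8% lower in the latter. Ccr2, F13a1, Vcan, Mgst1 and Hp of the classical side are markers of the gate. So are Cx3cr1, Ace, Treml4, Spn and Adgre4 of the nonclassical side. Cells of both libraries were gated for carrying these transcripts. The lack of a difference was therefore partly set by the gate, and nothing is concluded from it.

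**Figure D4:**
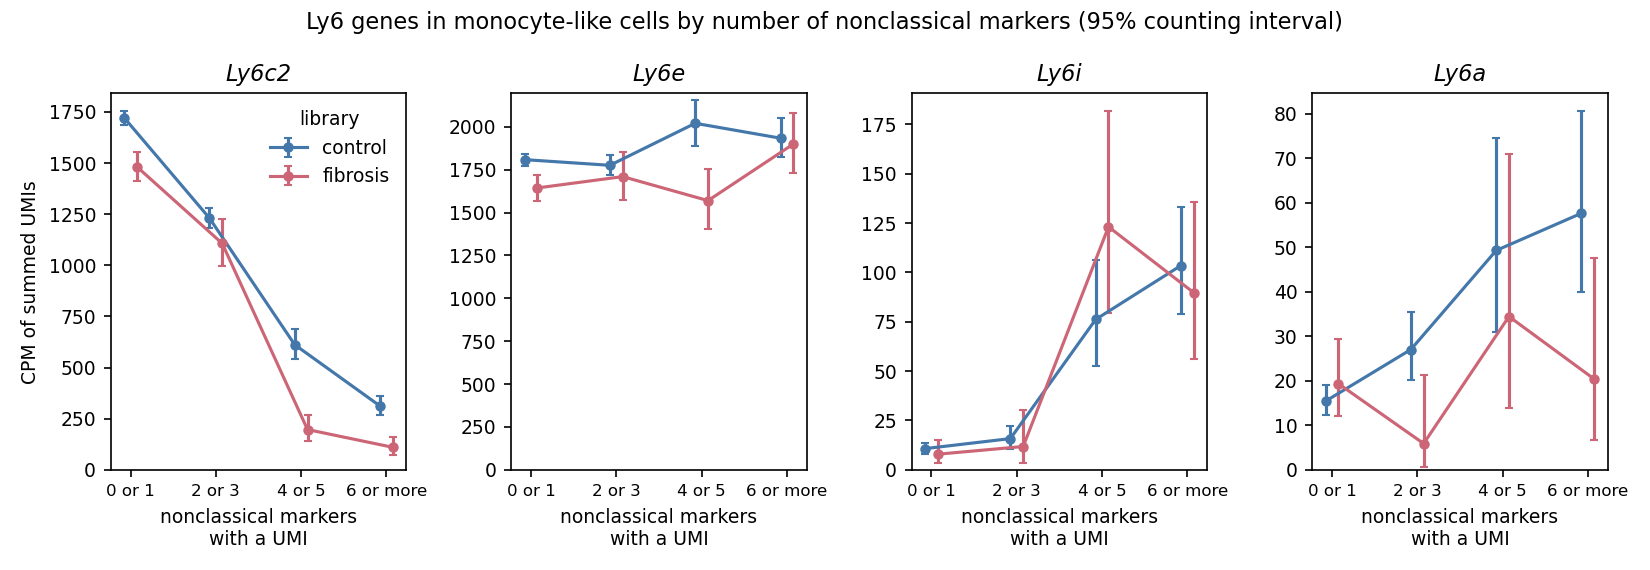
Ly6c2, Ly6e, Ly6i and Ly6a in monocyte-like cells grouped by how many of the 8 nonclassical markers had a UMI (horizontal), as CPM of summed UMIs (vertical, each gene on its own scale) with 95% counting intervals, control in blue and fibrosis in red. Ly6c2 goes from 1722 and 1482 CPM at the left to 312 and 110 CPM at the right, and Ly6i from 10.8 and 7.92 to 103.5 and 89.7 CPM.

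Ly6c2 was also present in lymphocytes. T cell-like cells had 376 CPM (347 to 408) in control and 274 CPM (248 to 303) in fibrosis, and NK cell-like cells 365 and 188 CPM. CD8 T cells with a UMI of Ccl5, a chemokine of memory and effector cells, stood at 959 and 793 CPM (96 and 57 cells), and those without it at 271.5 and 301 CPM (144 and 143 cells). Ly6c2 is a textbook surface marker of memory CD8 T cells in mice. In T cell-like cells 1 of 11 genes of the memory or effector side (Gzmb) was at least 2-fold lower and none of 6 naive genes passed 2-fold (medians of log2 -0.08 and -0.16), against 4.62% higher and 1.97% lower over all genes. Neutrophil-like cells had 272 and 271 CPM. The order of T cell-like and NK cell-like cells was within the intervals in control. In type 2 dendritic cell-like cells Ly6c2 was at 74.6 and 31.9 CPM (25 and 29 UMIs), from 4 and 12 cells, and 1 control cell held 15 of the 25, so this call did not hold without the top cell. Over all genes 2.88% were lower in that class.

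Ly6g, the antigen used to sort neutrophils, was highest in neutrophil-like cells. It stood at 537 CPM (497 to 580) in 585 control cells and 445 CPM (354 to 552) in 73 fibrosis cells, and 48.9% and 49.3% of them had a UMI. B cell-like cells, of similar depth (median 1855 and 2538 UMIs against 1865 and 2195), had a UMI in 0.235% and 0.293%. Thinned to 1000 UMIs per cell, the neutrophil-like shares were 32.7% and 31.0%. Neutrophil-like cells were 7.79% of control and 1.11% of fibrosis cells and held 79.6% and 68.3% of Ly6g UMIs. The level differed by 1.21-fold, under the 2-fold limit.

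In AT2-like cells Ly6i went from 45 UMIs, 7.33 CPM (5.34 to 9.80), in control to 594 UMIs, 57.1 CPM (52.6 to 61.8), in fibrosis, 7.79-fold higher. Of 1005 control cells 31 (3.08%, 2.11% to 4.35%) had a UMI, and of 1700 fibrosis cells 259 (15.2%, 13.6% to 17.0%). Among the fibrosis cells 136 had 1 UMI, 93 had 2 to 4 and 30 had 5 or more, up to 15, while the highest control cell had 5. B cell-like cells, where Ly6i would be background but depth was lower, had a UMI in 0.353% and 0.88% of cells. Alveolar macrophage-like cells, nearer in depth to AT2-like cells, had 3 and 10 Ly6i UMIs (0.946 and 2.23 CPM) in 616 and 785 cells. Thinned to 1000 UMIs, 0.67% (0.264% to 1.39%) of control and 4.52% (3.58% to 5.62%) of fibrosis AT2-like cells had one, against 0.169% and 0.301% of B cell-like cells.

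**Figure D5:**
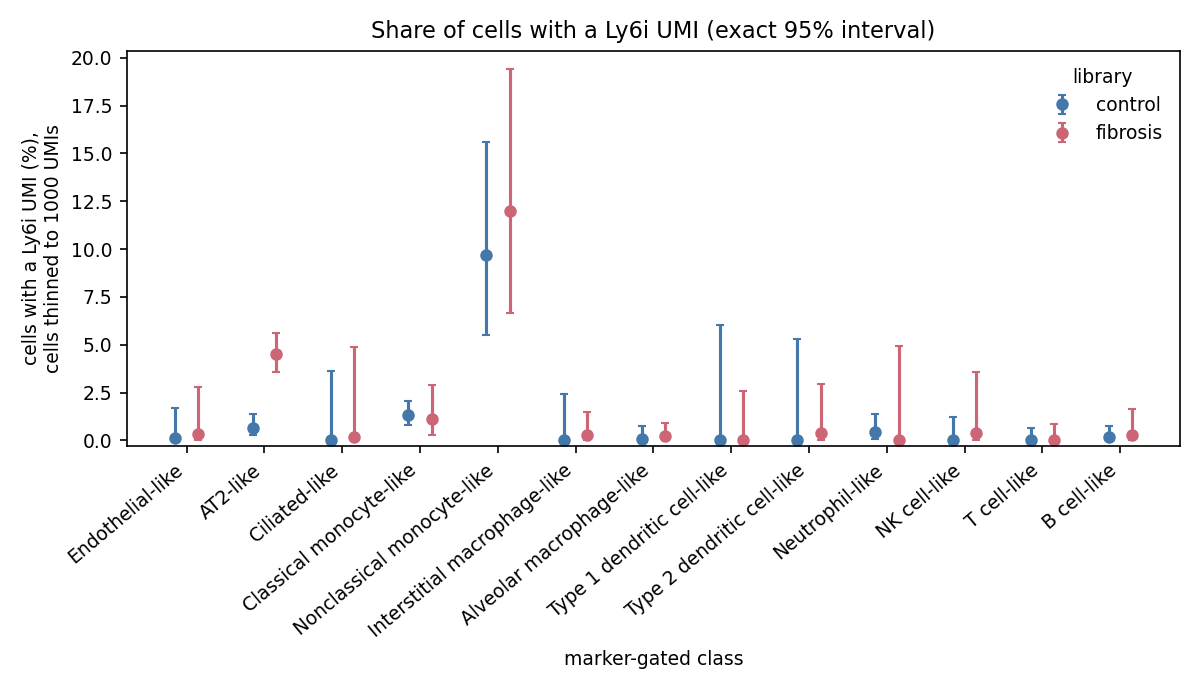
Share of cells with a Ly6i UMI (%, each cell thinned to 1000 UMIs) in the 13 classes, control in blue and fibrosis in red, with exact 95% binomial intervals. AT2-like cells stand at 0.67% in control and 4.52% in fibrosis with intervals that do not overlap, and nonclassical monocyte-like cells are the highest class in both libraries with intervals that do.

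Of the 13 classes Ly6i was highest in nonclassical monocyte-like cells, with 111 CPM (83.4 to 146) and 122 CPM (87.4 to 165), so their markers were set beside the AT2 result. Classical monocyte-like cells had 13.6 and 9.90 CPM, and the classes other than these monocytes and AT2-like cells had 6.58 CPM or less. The 8 nonclassical markers summed to 24.7 CPM in control and 38.7 CPM in fibrosis AT2-like cells, against 4190 CPM in the control nonclassical class. At least 1 of them had a UMI in 57 of the 259 fibrosis AT2-like cells with Ly6i and in 16.2% of those without it, and in 3 of 31 and 11.1% in control. In AT2-like cells without a UMI of any of them Ly6i was 6.70 and 53.4 CPM, 7.97-fold higher. Cells with a UMI of Il33, an alarmin that AT2 cells make, had 5.77 and 55.7 CPM (log2 3.27) and those without it 11.1 and 61.5 CPM (log2 2.48). Ly6a, the nearest copy of Ly6i in coding identity, was at 17.8 and 24.8 CPM, and with both genes summed the difference was log2 1.71. In the last 300 transcript bases Ly6c1 was nearer to Ly6i (84.6% identity) than Ly6a was (82.4%). Ly6c1 stood at 70.3 and 84.5 CPM in AT2-like cells, and its sum with Ly6i was not run. AT2-like cells held 13.4% of Ly6i UMIs in control and 76.2% in fibrosis, where they were 13.4% and 25.9% of kept cells. Of all genes in this class 4.03% were at least 2-fold higher.

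Ly6d was found in B cell-like and plasmacytoid cells. It stood at 1963 CPM (1901 to 2028) in control and 1664 CPM (1582 to 1749) in fibrosis B cell-like cells, where 92.2% and 92.4% of cells had a UMI. Plasmacytoid dendritic cell-like cells had 2015 and 1151 CPM, and the control interval of 1836 to 2207 CPM overlapped that of B cells. Several members were found at once in these cells, where 4 or more of the 7 genes had a UMI in 71.7% of control and 51.2% of fibrosis cells. In other classes Ly6d was low, and 3 combinations passed 2-fold. Over all genes 13.6% were at least 2-fold higher in neutrophil-like, 4.35% in classical monocyte-like and 7.59% in type 2 dendritic cell-like cells. In neutrophil-like cells it was 12.3 and 119 CPM, from 15 and 22 UMIs in 14 and 9 cells. The B cell markers summed to 66.7 and 309 CPM there, 8 of the 9 fibrosis cells with Ly6d carried at least 1 of them against 4.69% of the others, and without marker-bearing cells 11 and 1 UMIs remained. In classical monocyte-like cells Ly6d was 5.13 and 25.1 CPM, the B cell markers 31.4 and 93.7 CPM, and without marker-bearing cells Ly6d was 4.11 and 8.93 CPM. Thinned to 1000 UMIs, the ratio was log2 0.28. In type 2 dendritic cell-like cells it was 8.95 and 24.2 CPM, from 3 and 22 UMIs of which 1 fibrosis cell held 11, and without marker-bearing cells 1 and 5 UMIs were left. Under a stricter gate the direction changed, to log2 -1.01.

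Ly6e was detected in 86.4% of control and 83.8% of fibrosis cells and in each of the 13 classes. Of the 13 it was highest in endothelial-like cells, with 3767 CPM (3618 to 3920) and 2218 CPM (2105 to 2335). Plasmacytoid dendritic cell-like cells, too few in fibrosis for the comparison, had 2561 and 2294 CPM. B cell-like cells had 2351 and 1831 CPM, nonclassical monocyte-like cells with 2112 and 1812 CPM and classical ones with 1801 and 1647 CPM. The last 3 overlapped by neighbours in fibrosis. Alveolar macrophage-like cells were lowest of the 13 with 336 and 270 CPM. AT2-like cells, at 669 and 807 CPM, were 1 of 3 classes with a higher level in fibrosis, with ciliated-like and neutrophil-like cells.

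The 1 Ly6e ratio past 2-fold was in interstitial macrophage-like cells, at 1316 CPM (1221 to 1417) in 150 control and 606 CPM (566 to 648) in 361 fibrosis cells, 2.17-fold lower. It was under 2-fold in 5 of 10 alternatives, down to log2 -0.86. The 12 alveolar macrophage markers summed to 795 and 5680 CPM in these cells, and Plet1 was at 0 in control. In cells with 0 or 1 of these markers Ly6e was 1434 and 684.5 CPM (log2 -1.07, 110 and 133 cells), and with 2 or more 1074 and 574.5 CPM (log2 -0.90, 40 and 228 cells). Of 16 interferon response genes tested in this class 6 were at least 2-fold lower and none higher, with a median log2 of -0.74, against 6.97% higher and 3.88% lower over all genes and a median of -0.03. The 6 were Isg15, Irf7, Oasl2, Zbp1, Rtp4 and Ifitm3. The list was not split by alveolar macrophage markers. In control, alveolar macrophage-like cells had less Ifitm3 than interstitial ones (50.8 against 728 CPM). The same held for Isg15 (15.8 against 63.3), Irf7 (4.41 against 57.7), Zbp1 (10.1 against 27.9) and Rtp4 (5.67 against 63.3). The part of the make-up of the class was not tested. In neutrophil-like cells 1 of 16 was higher and 6 lower, against 13.6% and 8.47% over all genes, while Ly6e there differed by log2 0.15. In endothelial-like cells none of 20 passed 2-fold in either direction.

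Ly6a in nonclassical monocyte-like cells was 96.6 and 32.7 CPM, from 46 and 11 UMIs, with endothelial markers at 220 and 137 CPM, and their part was not tested. The ratio was under 2-fold in 3 of 11 alternatives, and in that class 3.8% of all genes were lower.

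The genes most like each member over the 30 points of a class in a library, among 11439 genes, are a description, since the points share 2 libraries. Ly6a was most like Pecam1 (r = 0.893), an endothelial adhesion gene, Hs3st1 and Id3. Ly6c1 was most like Timp3 (0.926), Slco2a1 and Rapgef5, and Ly6a and Ly6c1 had r = 0.781 with each other. The 3 genes most like Ly6c2 included Cdkn2d (0.773) and Irf7, and Ly6c2 had r = -0.05 with Ly6c1. Ly6d was most like Spib (0.958), a transcription factor of B and plasmacytoid cells, Mzb1 and Gm43291, and Ly6g most like BC100530 (0.983) and the neutrophil granule genes Camp and Ngp. Ly6i was most like Serpinb2 (0.865), Tnfsf13os and Cd300e, the last a marker of the nonclassical gate, and Ly6e was most like Nosip (0.752), Eif4ebp2 and Plac8.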

How the data were processed

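Single cells of 2 mouse lungs, 1 per group, were profiled by droplet 3′ sequencing. The deposited values are raw UMI counts per gene and cell, made by the authors with bcl2fastq and Cell Ranger 1.3 on mm10, per the submitters' processing notes. Cells over 10% mitochondrial UMIs or under 200 genes were left out, as were predicted doublets (515 and 386), taken as the highest-scoring cells at an expected 0.8% per 1000 cells, because the caller alone marked 15 of 8025 control cells. Each remaining cell was given a class by a gate on 25 marker lists without Ly6 genes (at least 2 markers, score of at least 0.5, lead of at least 0.2), a scoring rule set after the data were seen. Raw counts were summed per class and library and divided by the class total. Poisson, binomial and conditional intervals (95%) cover counting error only, and no test was run with 1 mouse per group. A combination was called at 2-fold with at least 20 UMIs over both libraries. The script was tested on simulated data. The members and gene lists (interferon response, monocyte sides, T cell sides, endothelial kinds, Ly6/uPAR superfamily) were chosen with earlier results of these data known. All 7 members were named, with the 3 genes of highest Pearson r of log2(CPM + 10) for each, among genes with at least 200 UMIs, and 1 of these genes is not reported here. Alternatives covered doublets, depth, thinning, clusters, gate strictness, cell weighting, mitochondrial and count filters, a shared shift and summed copies. Python 3.11.15, numpy 2.4.6, scipy 1.17.1, pandas 2.3.3, scanpy 1.11.5 and biopython 1.88 were used.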

Additional observations from a re-analysis of the deposited data

How the results depend on the processing

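Of 272 ratios recomputed for 26 combinations, 227 stayed within the counting interval of the reported ratio, 44 left it, and 1 called ratio changed direction. That was Ly6d in type 2 dendritic cell-like cells, log2 -1.01 under a stricter gate. Ly6d in neutrophil-like cells without B cell markers also changed direction, to log2 -0.60, an alternative chosen after seeing the data. Of the 12 called combinations, 2 passed 2-fold under each whole-class alternative. With cells thinned to 1000 UMIs, 1 combination was higher and 2 were lower, of 35 that kept 20 UMIs. The higher one was among the 6 reported, and the 2 lower ones were not among the 6 reported, 1 of them being Ly6c2 in NK cell-like cells (log2 -1.27). Without thinning that ratio was log2 -0.95, and 1 fibrosis cell held 22.4% of the 67 fibrosis UMIs. Of the 11 called combinations with a thinned ratio, 8 were under 2-fold, endothelial Ly6c1 (log2 -0.98) and interstitial macrophage Ly6e (log2 -0.91) among them, and the cause was not tested. With a minimum of 5 UMIs, 10 were higher and 13 lower, of 76. No share over all genes is given at this minimum or after thinning, so nothing is read from these counts. Combinations near 20 UMIs carry wide intervals. No paired analysis was possible because each group has 1 library.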

Other observations

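Among 30 other genes of the Ly6/uPAR superfamily, 27 were in the count table, 14 had at least 20 UMIs, 8 had 1 to 19 and 5 had none. Gpihbp1, which carries lipoprotein lipase across capillaries, stood at 417 CPM in control and 379 CPM in fibrosis endothelial-like cells. Slurp1 was highest in mesothelial-like cells, with 1286 and 1386 CPM from 31 cells in each library, and Lypd2 in club-like cells, with 515 and 922 CPM from 17 and 39 cells. Plaur, the urokinase receptor, was at 166 and 135 CPM in alveolar macrophage-like cells. Ly6g6c had no UMI in 41 control and 78 UMIs in 49 fibrosis fibroblast-like cells. How these UMIs were spread over the cells was not examined, so no change is read from them. In the same fibroblast-like cells 1 fibrosis cell held 58.4% of the Ly6e UMIs and 58.5% of the Ly6d UMIs, and these classes are below the 50 cells set for a comparison.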
